A study of Homo sapiens with 5 samples.

Results

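Chromosome 9 of the leukaemia line K562 was described by its methylated-DNA peaks, leaving out a segment of 2 Mb on the long arm that holds ABL1, one partner of the BCR-ABL1 fusion. Members were all peaks on chromosome 9 (build hg19) that started outside that segment, and the short arm was taken as every start below 47 Mb. This gave 677 of 23350 peaks, or 2.90%, which merged into 334 of 11260 regions. At the edges of the segment, the last peak kept before it in WT bulk started at 132987518 (score 97.3) and the first after it at 135048700 (91.6), while peaks starting at 133567030 (106) and 134946527 (100.2) were left out. Of the peaks kept, 542 were on the long arm and the others on the short arm, and none started between 20 and 31 Mb, the stretch that holds the tumour suppressor gene CDKN2A.

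Peaks came from methylated DNA immunoprecipitation with sequencing (MeDIP-seq), a method that enriches genomic DNA fragments bound by an antibody to 5-methylcytosine. K562 is an established line from a patient with chronic myeloid leukaemia. All 5 cultures were K562 grown in the same medium: 2 were wild type for DNMT3A, namely WT bulk and WT transfected, and 3 were lines with DNMT3A mutated by CRISPR/Cas9, namely MT1, MT2 and MT4. The labels call the lines clones, and give neither the DNA transfected into WT transfected nor the sequence of each mutation, so effects of cloning or transfection and of genotype cannot be told apart.

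The lists held 1426 to 8399 peaks, shortest in MT2 and longest in MT4, and no read totals were used here. Every peak had a caller score of at least 90, as deposited by the authors, so a site missing from a list is one that did not reach that limit. Nothing in the peak lists shows the edited DNMT3A sequence, and the genotype labels were taken as given. Intervals given for shares are 95% Wilson intervals, which cover only the error of counting, and neighbouring peaks of a library are not independent.

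DNMT3A is one of the enzymes that place new methyl groups on cytosine, chiefly where cytosine is followed by guanine (CpG), while DNMT1 copies existing marks after replication. An immunoprecipitation of this kind returns a fragment only where the DNA is present and carries methylated CpG. CDKN2A encodes p16 and, from another reading frame, p14ARF, which restrain the cell cycle through RB and p53. Together with its neighbours CDKN2B, a related inhibitor, and MTAP, an enzyme of methionine salvage, it is deleted in many leukaemias, and K562 is known to lack it.

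Genes known to lie around CDKN2A were examined for CpG at their promoters. In the gene order of the GRCh38.p14 RefSeq table, 39 protein-coding genes lie from MLLT3, a partner of MLL fusions, to LINGO2, a gene of neuronal surface proteins, and 17 of them encode type I interferons. A list of 27 genes around CDKN2A matched in full, and 25 of the 27 lie between those limits. Of these 25, 22 had a promoter in the RefSeq set, and the 250 bases before the start held 0 to 35 CpG (median 13; over all 35116 promoters the median was 11). CpG (the letters CG, which read the same on both strands) reached at least that overall median in 14 of the 22 and was absent in 3. The list was chosen by name and holds only some of the interferon genes, namely IFNB1, IFNW1, IFNA1, IFNA2 and IFNK. Those with a promoter in the set were CpG-poor: IFNB1 had 0, IFNA1 2, IFNA2 1 and IFNK 5. The median of 13 thus describes the list and not all genes between the limits. At least 1 CpG was present in 93.9% of all promoters over the same length. The 3 sequences shown lie within the range of 0 to 35 CpG and include the gene for which the stretch is known. They are the 250 bases before the start of each gene, 5′ to 3′ on the gene's own strand (minus for CDKN2A and IFNB1, plus for MTAP), from RefSeq on GRCh38.p14, with CpG in capitals. Positions on that build cannot be set against hg19 peaks, and no gene was assigned to a single peak.
CDKN2A: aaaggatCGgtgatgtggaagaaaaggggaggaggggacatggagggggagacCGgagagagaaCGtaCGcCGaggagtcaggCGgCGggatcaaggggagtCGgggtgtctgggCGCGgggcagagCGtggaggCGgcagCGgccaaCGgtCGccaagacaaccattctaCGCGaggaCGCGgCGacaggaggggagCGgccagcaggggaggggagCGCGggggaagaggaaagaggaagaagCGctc
MTAP: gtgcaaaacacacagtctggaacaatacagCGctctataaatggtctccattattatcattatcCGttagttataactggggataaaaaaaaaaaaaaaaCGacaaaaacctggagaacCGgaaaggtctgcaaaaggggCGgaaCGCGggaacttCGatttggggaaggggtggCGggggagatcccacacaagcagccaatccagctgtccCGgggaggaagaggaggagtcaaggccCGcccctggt
IFNB1: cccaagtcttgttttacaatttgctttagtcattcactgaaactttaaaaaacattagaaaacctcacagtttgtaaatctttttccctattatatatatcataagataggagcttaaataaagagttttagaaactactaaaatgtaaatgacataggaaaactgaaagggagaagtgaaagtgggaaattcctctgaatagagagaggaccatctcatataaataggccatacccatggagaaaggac

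These stretches hold 24 CpG for CDKN2A, 11 for MTAP and 0 for IFNB1, which encodes interferon beta. Of all promoters, 76.3% held fewer than CDKN2A and 49.7% held fewer than MTAP. The listed genes thus include CpG-rich and CpG-free promoters.

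From 20 to 31 Mb, 0 peaks were listed in WT bulk, WT transfected, MT1, MT2 and MT4 alike. The stretch is 23.4% of the short arm's length. If peaks fell independently and evenly, a count of 0 would allow up to 3 peaks. That is 8.57% of the 35 short-arm peaks of WT bulk, 11.5% of the 26 of WT transfected and 21.4% of the 14 of MT1. It is 27.3% of the 11 of MT2 and 6.12% of the 49 of MT4. The limit is below the share of length in 4 of the 5 lists. In MT2 it is above it, so that a shortage in the stretch was not detectable at the depth of that list alone.

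The other 36 Mb of the short arm held 1.36 peaks per Mb in MT4, 0.972 in WT bulk, 0.722 in WT transfected, 0.389 in MT1 and 0.306 in MT2. These densities were 4.99 times the limit of 3 peaks per 11 Mb in MT4, 3.56 times in WT bulk, 2.65 times in WT transfected and 1.43 times in MT1. For MT2, where the limit does not exclude an even spread, no ratio is given. The ratios are no lower bound of a shortage, since short-arm peaks were not evenly placed. From 7 to 32 Mb, which includes the stretch, only WT transfected, MT2 and MT4 had a peak, 1 each. At the density of the long arm the stretch would have held 23.9 peaks in MT4, 17.2 in WT bulk, 12.9 in WT transfected, 8.13 in MT1 and 2.63 in MT2.

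On a scale of peaks per Mb per 1000 peaks of the list, the rest of the short arm held 0.166 ± 0.029 (SD, n = 5) and the stretch 0. The scale divides by list length and does not remove every difference that goes with it. With a count of 0 in each list, the difference in a library is the density of the rest of the short arm and its sign is fixed, so the difference carries no test. All 5 cultures descend from K562, so they are not 5 independent origins of the stretch. Absent DNA, unmethylated DNA and methylated DNA that stays below the score limit all give the same empty list. The peak lists cannot tell these apart, and the cause of the empty stretch was not tested.

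The empty interval reached beyond both limits. The nearest region before it ran from 19433438 to 19434606, where MT2 scored 90.3 and MT4 97.9 with no peak in the other 3 libraries. The nearest after it ran from 32566414 to 32567605, with a score of 158 in MT4 alone. Between them lay 13.1 Mb with no peak in any list. A second gap, of 10.2 Mb, ran from 6949892 to 17134742, and between both gaps stood only that region and a region from 17134743 to 17135419 with a score of 96.6 in WT transfected. The scores of both were near the lower limit of the lists.

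**Figure D1:**
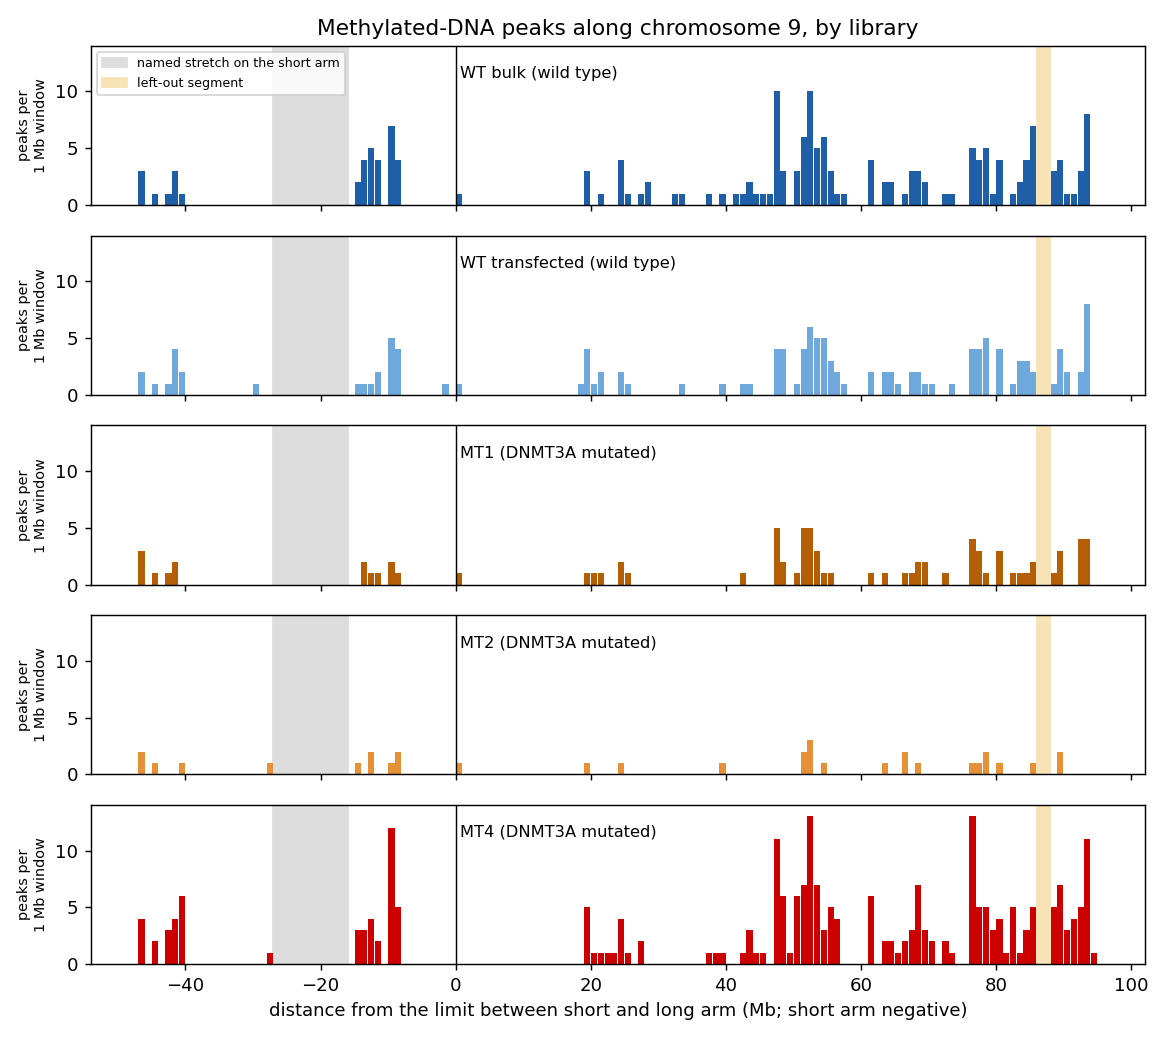
Number of peaks in each 1 Mb window of chromosome 9 (vertical axis) against distance in Mb from the limit between the arms (horizontal axis, short arm negative), with 1 panel for each of the 5 libraries. The grey band marks the 11 Mb stretch with 0 peaks in every library, the yellow band the segment that was left out, and the short-arm peaks stand in a group at the chromosome end and a group nearer the centromere.

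Long intervals without peaks were set against all others on chromosomes 1 to 22 and X. Of 11232 gaps between regions, 8 were at least 10 Mb long and 3 of these were on chromosome 9. The 13.1 Mb gap was in position 4 and the 10.2 Mb gap in position 8. The longest on chromosome 9, in position 2 with 18.4 Mb, ran from 47186190 to 65602465 on the centromere side of the long arm. The length used for the long arm includes that gap. Whether the reference sequence allows peaks to be called inside these gaps was not examined. A gap of 7.14 Mb from 38621468 to 45765701 was in position 18. Chromosome 9 thus held 4 of the 18 longest gaps, a limit set by the position of its own 7.14 Mb gap. Other chromosomes also recurred among the 25 longest. X was at positions 3, 12, 16 and 25, chromosome 13 at 6, 10 and 24, and chromosome 4 at 7, 21 and 22. Of 2709 stretches of 11 Mb taken at steps of 1 Mb over the same chromosomes, 23 (0.849%) had no peak in any list, and 9 of these were on chromosome 9, 2 of them on the short arm. Stretches that overlap share their peaks, so these counts describe the lists and carry no test.

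**Figure D2:**
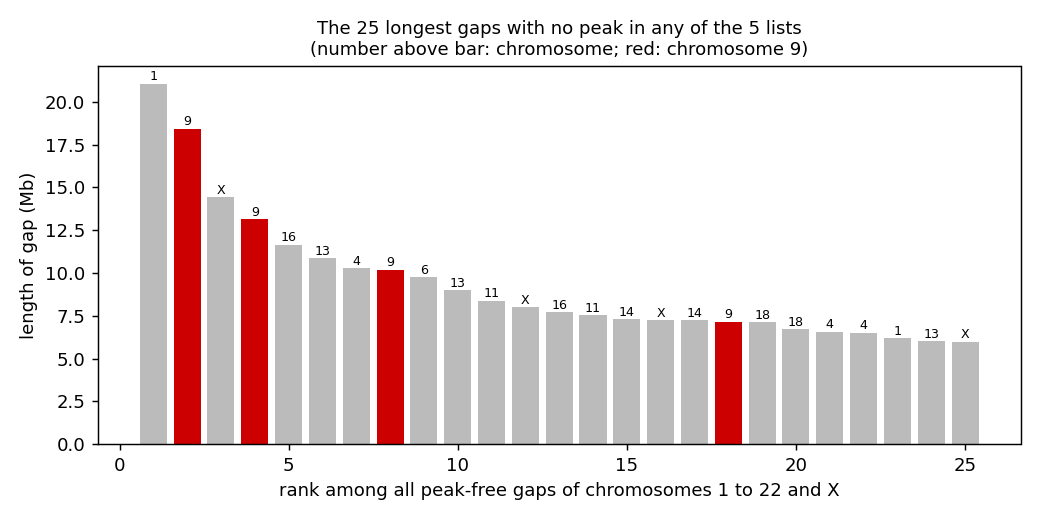
Length in Mb (vertical axis) of the 25 longest intervals with no peak in any of the 5 lists, by rank (horizontal axis), with the chromosome above each bar. Red bars are chromosome 9, at positions 2, 4, 8 and 18.

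The short arm carried fewer peaks per Mb than the long arm. WT bulk had 35 peaks on the short and 144 on the long arm, WT transfected 26 and 108, MT1 14 and 68, MT2 11 and 22, and MT4 49 and 200. In peaks per Mb, the long arm (92.0 Mb without the left-out segment) was 2.10 times the short arm in WT bulk, 2.12 times in WT transfected, 2.48 times in MT1, 1.02 times in MT2 and 2.08 times in MT4. The ratio lay near 2 in the other lists, and MT2 had nearly equal densities on both arms. The 92.0 Mb include the 18.4 Mb gap without peaks.

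Per 1000 peaks of the list, the short arm held 0.127 ± 0.022 peaks per Mb (SD, n = 5) and the long arm 0.240 ± 0.041 (SD, n = 5). The difference of -0.113 was negative in 5 of 5 libraries (exact permutation test over libraries, sign flips, two-sided, p = 0.063, the smallest that 5 libraries allow). It was -0.0739 with the stretch from 20 to 31 Mb left out of the short arm (exact permutation p = 0.125), where MT2 had 0.214 on the rest of the short arm against 0.168 on the long arm. It was -0.0443 with every list limited to its 1426 best-scoring peaks (exact permutation p = 0.063) and -0.0700 with only peaks at or above the median score (exact permutation p = 0.125). With the left-out segment kept, the difference was -0.118 (exact permutation p = 0.125). The sign in MT2 then turned, with 0.1641 on the short arm and 0.1640 on the long arm.

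Both arms were below the other chromosomes, which held 0.346 ± 0.001 peaks per Mb per 1000 peaks (SD, n = 5) between the first and last peak of each. The short arm was lower by a mean difference of -0.219 and the long arm by -0.106, each in 5 of 5 libraries (exact permutation test over libraries, two-sided, p = 0.063 for each, a comparison added after the values were seen). Without the peaks at 40 to 70 Mb, which include the 18.4 Mb gap, the difference of the long arm was -0.0454. Counted only from 65 Mb on, the long arm held 0.311 peaks per Mb per 1000 peaks in WT bulk and 0.323 in WT transfected. It held 0.318 in MT1, 0.199 in MT2 and 0.322 in MT4. Much of the long-arm difference thus went with that gap, except in MT2. However, only chromosome 9 was freed of its gap. The other chromosomes kept theirs, such as 21.0 Mb on chromosome 1 and 11.6 Mb on chromosome 16, so the narrowed difference sets unlike measures side by side. Of the other chromosomes, only X, with 0.0844, had a lower mean density than the short arm. Chromosome 14 followed with 0.151 and chromosome 13 with 0.162. The long arm, with 0.240, lay above these and above chromosome 4 (0.231). Chromosomes 3 (0.246) and 12 (0.253) were close to it, so its low density is not particular to chromosome 9.

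**Figure D3:**
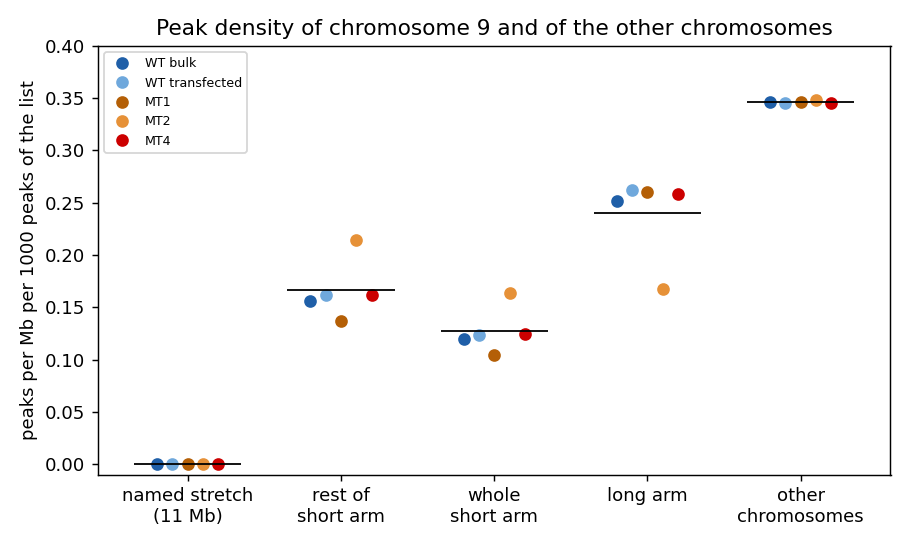
Peaks per Mb per 1000 peaks of the list (vertical axis) in the 11 Mb stretch, the rest of the short arm, the whole short arm, the long arm and the other chromosomes; points are the 5 libraries and lines their means. The stretch is at 0 in all 5, the short arm averages 0.127 and the long arm 0.240, and MT2 lies above the other lists on the short arm and below them on the long arm.

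Peaks of the short arm stood in 2 groups. Within 7 Mb of the chromosome end lay 9 peaks of WT bulk, 10 of WT transfected, 7 of MT1, 4 of MT2 and 19 of MT4. From 32 to 39 Mb lay 26, 14, 7, 6 and 29 in the same order, which was 74.3% of the short-arm peaks in WT bulk and 50% in MT1. Only 1 short-arm peak of WT transfected, 1 of MT2 and 1 of MT4 started between 7 and 32 Mb. Over the 14 Mb of both groups together the density per 1000 peaks was 0.408 in MT4, 0.402 in WT bulk, 0.384 in WT transfected, 0.352 in MT1 and 0.501 in MT2. The limits of these groups were chosen after the positions were seen, so they carry no test.

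Of the 68 short-arm regions, 22 were in the group at the chromosome end and 43 in the group nearer the centromere. A peak in all 5 libraries was found in 3 of the 22 and 2 of the 43, against 7.42% of all regions in the genome. A peak in a single library was found in 9 of the 22 and 23 of the 43, against 49.9% of all regions. All 11 short-arm regions of MT2 and 12 of the 14 of MT1 also had a peak in MT4. On the other chromosomes these shares were 88.1% and 81.3%. No short-arm region was held by MT1 alone or by MT2 alone, against 1.97% and 0.633% of the regions on other chromosomes. With so few regions these counts are no result about the short arm.

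The 5 short-arm regions common to all libraries were given by their scores in WT bulk, WT transfected, MT1, MT2 and MT4, in that order. The region from 72663 to 74211 scored 265, 184, 166, 164 and 280. Among the chromosome 9 regions held by all 5 libraries it had the highest mean percentile of score within the lists, at 90.3. The region from 34370407 to 34373192 scored 296, 178, 196, 123 and 228, with a mean percentile of 86.1.

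The region from 2717282 to 2719534 scored 271, 191, 184, 98.6 and 235. The region from 38619591 to 38621467, the last before the gap on the centromere side, scored 198, 187, 110, 152 and 170. The region from 10379 to 11162, close to the start of the reference sequence of the chromosome, scored 139, 129, 133.3, 96.1 and 198. Wild-type and mutated lists overlapped in score at all 5 of these regions except that from 38619591, where both wild-type scores were above those of the 3 mutated lines. Of the 835 regions in the genome held by all 5 libraries, 14.7% separated in that direction and 15.1% in either, so 1 of 5 is no result about the short arm. Scores depend on the depth of each library, and no test was made.

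The next short-arm regions were 6 with a peak in 4 libraries, of which the 5 with the highest mean percentiles are described; the sixth, from 33019478 to 33020493, had a mean percentile of 18.1 and no peak in MT2. The region from 5040454 to 5042214 scored 252 in WT bulk, 210 in WT transfected, 125 in MT1 and 251 in MT4. Those from 5110478 to 5113266 and from 37575435 to 37577037 also lacked a peak in MT2. Those from 37785890 to 37788754 and from 38395045 to 38397808 lacked one in MT1. The missing library was 1 of the 2 shortest lists in each of the 6.

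**Figure D4:**
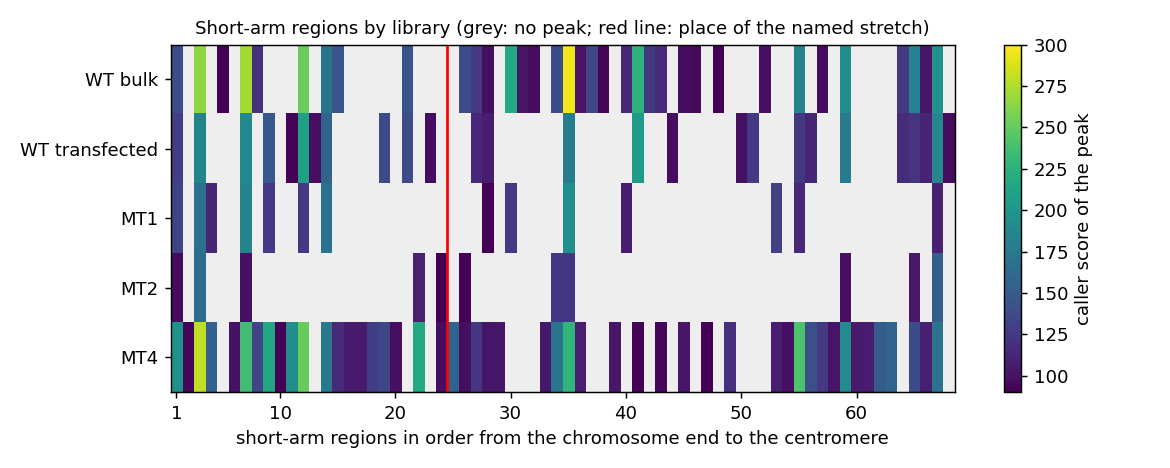
Caller score (colour) of the 68 short-arm regions, ordered from the chromosome end to the centromere (horizontal axis), in each of the 5 libraries (vertical axis); grey marks a region with no peak in that library. The red line marks the place of the empty stretch, and 5 columns are filled in every library.

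On the long arm, no region lay between the first, from 47183895 to 47186189, and that from 65602466. The first had a score of 113 in WT bulk, 146 in WT transfected, 156 in MT1 and 107 in MT2, and no peak in MT4, the longest list. It was the only chromosome 9 region that was held by the other 4 libraries and missing from MT4. Beside the centromere, MT4 had no peak from 39 to 65 Mb, WT transfected had 2 and the other lists 1 each.

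The largest group of long-arm peaks started between 94 and 110 Mb. It held 52 peaks of WT bulk, 37 of WT transfected, 24 of MT1, 6 of MT2 and 69 of MT4, or between 27.3% (MT2) and 36.1% (WT bulk) of the long-arm peaks. From 120 Mb to the left-out segment lay 34, 27, 16, 6 and 46 peaks in the same order, and beyond that segment 20, 17, 12, 2 and 36. Of the 85 regions from 94 to 110 Mb, 5 were in all libraries, as were 4 of the 63 from 120 Mb to the left-out segment. These limits were set after the positions were seen.

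The 5 windows of 1 Mb with the highest mean share were at 99, 98, 140, 94 and 123 Mb, all on the long arm. The window at 99 Mb held 10 peaks of WT bulk, 6 of WT transfected, 5 of MT1, 3 of MT2 and 13 of MT4, a mean share of 0.167% of a list. It was in position 60 of the 2183 windows with a peak in the genome. The window at 98 Mb held 6, 4, 5, 2 and 7 peaks in the same order, that at 140 Mb 8, 8, 4, 0 and 11, that at 94 Mb 10, 4, 5, 0 and 11, and that at 123 Mb 5, 4, 4, 1 and 13. MT2 thus had no peak in 2 of the 5 windows.

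Regions common to all libraries on the long arm numbered 13, and 6 of them were among the 10 with the highest mean percentile of the 18 such regions on the chromosome. That from 110248991 to 110251913 scored 337 in MT4, 277 in WT bulk, 199 in WT transfected, 220 in MT1 and 110 in MT2, and had a mean percentile of 85.6. That from 66454608 to 66459157, the first common region beyond the centromere, scored 202, 172, 179, 152 and 174 in the same order.

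The other 4 ran from 115379675 to 115381589, from 127869823 to 127871519, from 99838474 to 99841335 and from 101225435 to 101227282, with mean percentiles of 83.8, 83.1, 83.0 and 75.6. In the long-arm regions of this group, MT2 had the lowest score in 4 of 6, the exceptions being those from 66454608 and 99838474, where MT1 was lowest.

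The first genotype comparison was of the share of peaks on chromosome 9, which asks whether DNMT3A-mutated lines carried more or fewer of their peaks there. The share was 2.88% of the list in WT bulk (2.49 to 3.33%), 2.998% in WT transfected (2.54 to 3.54%), 2.89% in MT1 (2.33 to 3.57%), 2.31% in MT2 (1.65 to 3.23%) and 2.96% in MT4 (2.62 to 3.35%). MT2 was the lowest and all 5 intervals overlapped. The means were 2.94 ± 0.08% (SD, n = 2) in wild-type and 2.72 ± 0.35% (SD, n = 3) in mutated libraries, a difference of -0.218 percentage points (exact permutation test, two-sided, p = 0.6; no p below 0.2 is possible with 2 against 3). Without MT2 the difference was -0.0144.

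The share of chromosome 9 peaks on the short arm was 19.6% in WT bulk (14.4 to 26.0%), 19.4% in WT transfected (13.6 to 26.9%), 17.1% in MT1 (10.5 to 26.6%), 33.3% in MT2 (19.8 to 50.4%) and 19.7% in MT4 (15.2 to 25.1%). The means were 19.5 ± 0.1% (SD, n = 2) in wild-type and 23.4 ± 8.7% (SD, n = 3) in mutated libraries, a difference of 3.88 percentage points (exact permutation p = 0.8, two-sided). Without MT2, whose share rests on 11 of 33 peaks, the difference turned to -1.10. The spread among the mutated lines was larger than the difference between genotypes.

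The median width of chromosome 9 peaks was 1128 bp in MT4, 1281 bp in WT bulk, 1166 bp in WT transfected, 1343 bp in MT1 and 1707 bp in MT2. The difference of 169 bp between genotypes (exact permutation p = 0.6, two-sided) was 12.0 bp without MT2, 302 bp without MT4 and 112 bp without WT transfected. Peaks of MT2 were also widest elsewhere, with a median of 1790 bp on the other chromosomes. Median widths on the short and long arm were 1308 and 1270 bp in WT bulk, 1195 and 1166 bp in WT transfected, 1221 and 1354 bp in MT1, 1624 and 1707 bp in MT2, and 1108 and 1150 bp in MT4, so that neither arm was wider throughout. No short-arm peak was wider than 2776 bp, while the long arm reached 6123 bp in MT4.

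Scores within each list placed long-arm peaks near or below the middle. The median percentile on the short arm was 45.02 in MT4, 49.5 in WT bulk, 53.1 in WT transfected, 58.9 in MT1 and 37.9 in MT2. On the long arm it was 44.9, 43.2, 39.5, 50.9 and 38.8 in the same order, below the other chromosomes (49.9 to 50.4) in every list but MT1. These percentiles are of the authors' scores and describe each list alone.

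Of the 334 regions, 9 were held by WT bulk and WT transfected and lacked a peak in every mutated line, which is 2.69% (1.42 to 5.04%) and close to the 2.74% of all regions in the genome. The strongest was on the short arm from 6834009 to 6835519, with scores of 146 in WT bulk and 139 in WT transfected. The second, from 38377009 to 38378305, was also on the short arm and scored 125 and 118. The other 7 were on the long arm, with mean percentiles from 32.6 down to 12.6. They ran from 130993978 to 130997576, 140340982 to 140344831, 111624542 to 111625927, 140243253 to 140244493, 125628658 to 125629344, 80262381 to 80263187 and 101747697 to 101748572. The number was 29 without WT bulk, 53 without WT transfected and 35 without MT4, since fewer libraries are then required to hold or lack a peak.

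One region had a peak in all 3 mutated and in no wild-type library, 0.299% (0.053 to 1.68%) against 0.071% of all regions. It ran on the long arm from 136854648 to 136857643, and MT1 scored 137 there, MT4 113 and MT2 92.1. The number was 3 without WT bulk, 3 without MT1 and 6 without MT2, and at or above the median score no region was left in this class. A count of 1 with this interval cannot be read as a difference from the genome.

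A peak in a single library was found in 170 regions, 50.9% (45.6 to 56.2%) against 49.9% of all regions. MT4 alone held 100 of them and WT bulk alone 44, or 29.9% and 13.2% of the 334 regions, against 30.1% and 12% of all regions. A peak in all 5 libraries was found in 18, or 5.39% (3.44 to 8.36%), where 7.42% of all regions had one. On the short arm these were 5 of 68 (7.35%; 3.18 to 16.1%) and on the long arm 13 of 266 (4.89%; 2.88 to 8.18%). Sharing among libraries on chromosome 9 thus lay within counting error of the genome.

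Windows of 1 Mb in which the shares of the mutated lines did not overlap those of the wild-type cultures numbered 11 of 75 with a peak, or 14.7%, where 15.8% of all windows did. The mutated lines were higher in 3 of the 75, where 6.05% of all windows were, and lower in 8 of the 75, where 9.8% of all windows were. Among the 3, the window at 2 Mb held 1 peak in every list but MT4, which had 2, so its shares differed mostly by list length. In 7 of the 8 MT2 had no peak, so that its share was 0. The number ranged from 19 to 29 without one library, each library taken out in turn, and was 3 with every list at 1426 peaks.

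Recovery was defined over the regions with a peak in 2 or more of the remaining 4 libraries, as the percentage in which the library itself had a peak. On chromosome 9 it was 76% in WT bulk (95 of 125; 67.8 to 82.6%), 62.6% in WT transfected (87 of 139; 54.3 to 70.2%), 43.9% in MT1 (68 of 155; 36.3 to 51.7%), 18.5% in MT2 (30 of 162; 13.3 to 25.2%) and 86.1% in MT4 (99 of 115; 78.6 to 91.3%). On the other chromosomes it was 81.1%, 63.5%, 43.4%, 23.2% and 83.6% in the same order. The mean difference was -1.55 percentage points (exact permutation test over libraries, two-sided, p = 0.375), negative in 3 of 5 libraries.

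Recovery on the short arm was 66.7% in WT bulk (16 of 24), 51.7% in WT transfected (15 of 29), 33.3% in MT1 (10 of 30), 28.1% in MT2 (9 of 32) and 81.0% in MT4 (17 of 21). On the long arm it was 78.2% (79 of 101), 65.5% (72 of 110), 46.4% (58 of 125), 16.2% (21 of 130) and 87.2% (82 of 94) in the same order. The short arm was lower in 4 of 5 libraries and higher in MT2, with a mean difference of -6.53 percentage points (exact permutation p = 0.25, two-sided). Intervals of both arms overlapped in every library. The sign turned to 1.29 without WT bulk, 1.16 without MT1 and 3.10 without MT4. Recovery on either arm rose with list length, from MT2 over MT1, WT transfected and WT bulk to MT4. With every list at 1426 peaks, recovery on chromosome 9 ranged only from 48.8% in MT4 to 63.4% in WT transfected.

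**Figure D5:**
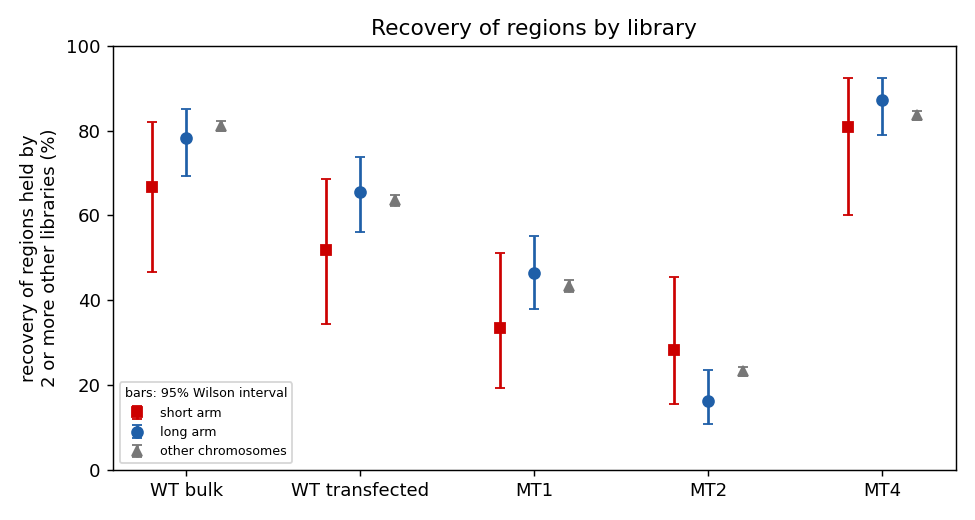
Recovery in percent (vertical axis) of regions held by at least 2 other libraries, on the short arm, the long arm and the other chromosomes, for each of the 5 libraries (horizontal axis); bars are 95% Wilson intervals. Libraries range from 16.2% (MT2, long arm) to 87.2% (MT4, long arm), and the intervals of the arms overlap within each library.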

How the data were processed

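Each of the 5 libraries came with 1 peak list that the authors had called for that library alone. The deposited names of the peaks start with MACS; the submitters' processing notes name Bowtie 1.1.1, edgeR and build hg19, without their roles, and the labels' protocols state paired ends at about 40 M reads per sample. Which version and threshold of the caller were used, and whether with an input control, was not given in the sources used here. Scores in the lists, as deposited by the authors, served for ranking inside each list and for a cut at the median score of all peaks. They were also compared between genotypes, without a test, at regions held by all 5 libraries. Starts and ends, deposited by the authors in base pairs, were printed counted from 1. No read counts were used, so the depth behind a peak is unknown and no count model was fitted.

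From the lists, peaks were counted by arm, stretch and 1 Mb window and merged across libraries where they overlapped by at least 1 bp (scipy 1.17.1, numpy 2.4.6, pandas 2.3.3 and matplotlib 3.10.9 under Python 3.11.15). The length of the long arm runs from 47 Mb to the last peak of any list. A region takes the highest score of a library's peaks in it. Genotypes were compared over the 10 ways to choose 2 of 5 libraries, and parts of the chromosome by the 32 sign flips of the 5 within-library differences; every test was exact and two-sided. P-values measure only the spread between these libraries. Simulated lists with 800 planted regions were used to check merging and tests, and all 800 were recovered.

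The members and lists were chosen with earlier results of these data known. Regions were named by rule: the 10 highest mean score percentiles among regions in all 5 libraries, up to 10 held by exactly 1 genotype, the 10 short-arm regions in most libraries (ties by that percentile), those nearest the stretch from 20 to 31 Mb, and 5 windows; other regions were named after their values were seen. A list of long-arm genes was not used, for want of an hg19 annotation here. As alternatives, peaks below the overall median score were dropped, or lists were cut to equal length; others were leaving out 40 to 70 Mb, keeping the segment of ABL1, a 50% overlap and leaving out each library.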

Additional observations from a re-analysis of the deposited data

How the results depend on the processing

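No exact test passed 0.05 under any setting; the smallest p that 5 libraries allow is 0.2 between genotypes and 0.063 within libraries. No paired analysis was possible because the labels give no pairing of wild-type with mutated cultures. Of 113 recomputed values, 89 kept their sign or stayed within 1.5 times. Both numbers include the values for the stretch from 20 to 31 Mb, which could not change sign. The density differences of the short against the long arm and of either arm against other chromosomes kept their sign under all settings run; the sign for the stretch from 20 to 31 Mb is fixed by its counts of 0.

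With every list at 1426 peaks, the genotype difference in chromosome 9 share turned to 0.0468 percentage points and that in width to -38.5 bp. The genotype difference in short-arm share was 0.364 percentage points at that length. The recovery difference between arms turned to 2.22, and the numbers of wild-type-only regions, mutated-only regions and separating windows were 2, 2 and 3. At or above the median score the recovery difference between arms was 8.13, and there were 4 wild-type-only and 0 mutated-only regions. Without one library the recovery difference between arms ranged from -9.20 to 3.10, the short-arm share difference from -1.10 to 7.03, wild-type-only regions from 9 to 53, mutated-only regions from 1 to 6 and separating windows from 19 to 29. Fewer libraries or peaks change such counts by construction; for the changes of sign the cause was not tested.

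Of 28 named regions, 18 were held by another number of libraries at the stricter score and 19 at equal length. The fixed score limit and the unknown depth limit every absence.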
